A study of Caenorhabditis elegans with 2 samples.

Results

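Cohesin is the ring of proteins that holds sister chromatids together until they part, and its 10 genes here, of 19973 nuclear protein-coding genes in all, were taken by name: him-1 and smc-3, which encode the SMC subunits, the kleisin genes scc-1, coh-1, rec-8, coh-3 and coh-4, the SA subunit gene scc-3, the loader gene scc-2 and the release factor gene wapl-1. The site of each gene was the peak summit within 500 bp of any annotated protein-coding start of the gene. The measurement was chromatin immunoprecipitation with sequencing for EFL-1, a worm E2F transcription factor. It was made in 2 biological replicates of 1 group, whole young adult hermaphrodites of strain YL479 that carry EFL-1 with a GFP-FLAG tag at its C-terminus. The tagged protein was pulled down with an antibody to GFP, per the sample descriptions, although the antibody label reads efl-1. The sources used here do not name the promoter of the tagged gene, and control libraries were not analysed here. Germ line and soma were mixed in each sample, so more cells with EFL-1 at a site and more EFL-1 per cell cannot be told apart.

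The SMC pair and SCC-3 are common to cohesin of dividing and of meiotic cells, whereas the kleisin that closes the ring differs. SCC-1 is the kleisin of mitosis, and COH-1, grouped with it here as mitotic, acts in somatic cells. REC-8 and the closely related pair COH-3 and COH-4 are the kleisins of meiosis in the worm germ line. E2F factors and the DREAM complex they belong to are known for binding near the starts of cell cycle genes.

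EFL-1 had a reproducible peak at 8 of the 10 cohesin genes, against 8.86% of all nuclear protein-coding genes by the same rule (1770 genes, 95% Wilson interval 8.48 to 9.26%, counting error only). The interval treats genes as independent, although for 46.2% of called genes the peak was also near a start of another gene. Reproducible means that the peak was in the authors' optimal list, thresholded by the irreproducible discovery rate (IDR), which held 2179 nuclear peaks. Candidates are the 30000 sites in each of the pooled, replicate 1 and replicate 2 lists before that threshold. Of the 2 mitotic kleisin genes scc-1 had a peak and coh-1 had none, and all 3 meiotic kleisin genes, rec-8, coh-3 and coh-4, had one. The other 4 were smc-3, scc-3, scc-2 and wapl-1, and him-1 had none. The genes were picked with earlier results of these data known, so the number is a description and carries no test. The 8 peaks lay at 8 different sites.

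The kleisin sites are shown first, so that the mitotic and meiotic ones can be compared. Each line gives the bases within 100 bp of the summit on build ce11, read 5′ to 3′ on the strand of the gene from the RefSeq WBcel235 genome, which is the same assembly, with annotated exon bases left out. The coh-1 line is the site of its highest candidate, which was not a reproducible peak. Capitals mark a string of 13 bases, GTGCGCCTTTAAA, found in all 3 meiotic windows, and a word of 7 bases, ACCGTAC or its reverse complement GTACGGT, found in 5 of the 8 peak windows.
scc-1, chrII:4698428-4698577, plus strand: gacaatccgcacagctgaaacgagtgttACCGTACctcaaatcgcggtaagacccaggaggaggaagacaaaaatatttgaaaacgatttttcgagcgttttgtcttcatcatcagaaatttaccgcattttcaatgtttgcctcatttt
coh-1, chrX:7475105-7475305, minus strand: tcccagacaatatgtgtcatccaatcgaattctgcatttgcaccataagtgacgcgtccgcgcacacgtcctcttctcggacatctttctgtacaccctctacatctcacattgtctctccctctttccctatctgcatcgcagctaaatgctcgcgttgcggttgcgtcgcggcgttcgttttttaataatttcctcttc
rec-8, chrIV:13353334-13353534, minus strand: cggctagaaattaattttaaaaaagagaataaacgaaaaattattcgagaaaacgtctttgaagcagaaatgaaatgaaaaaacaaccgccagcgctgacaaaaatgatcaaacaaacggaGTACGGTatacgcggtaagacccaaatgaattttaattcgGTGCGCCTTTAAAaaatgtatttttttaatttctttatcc
coh-3, chrV:14457160-14457360, plus strand: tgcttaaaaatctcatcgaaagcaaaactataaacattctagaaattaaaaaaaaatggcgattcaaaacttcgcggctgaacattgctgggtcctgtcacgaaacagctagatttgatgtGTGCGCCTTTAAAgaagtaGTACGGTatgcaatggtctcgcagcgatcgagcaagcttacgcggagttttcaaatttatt
coh-4, chrV:4175723-4175881, minus strand: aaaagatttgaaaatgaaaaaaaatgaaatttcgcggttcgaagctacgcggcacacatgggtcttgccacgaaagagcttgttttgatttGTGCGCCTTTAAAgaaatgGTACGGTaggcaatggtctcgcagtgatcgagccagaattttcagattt

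The 13-base string was the longest run of letters common to the windows of rec-8, coh-3 and coh-4. It was in none of the windows of scc-1, smc-3, scc-3, scc-2 and wapl-1. Among all reproducible peaks, 0.642% held it within 100 bp of the summit, and 0.866% of those near a protein-coding start, against 0.41% of the 27792 pooled candidates outside them. The genome holds 952 copies on either strand, of which 14 (1.47%) lay within 100 bp of a reproducible summit. At coh-3 and coh-4 the string lay inside a longer stretch that these sites share, described next, so these windows are not separate occurrences. The string was picked as common to the rec-8, coh-3 and coh-4 windows, so its presence in them is a description. With 0.642% of peaks holding it, its absence from the other windows was the usual case and sets no group of kleisin genes apart.

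The coh-3 and coh-4 sites resembled each other over a longer stretch. Of 85 bases aligned without gaps, 75 were identical (88.2%), on chromosome V from 14457248 to 14457332 at coh-3 and from 4175739 to 4175823 at coh-4. No other place on the nuclear chromosomes matched the coh-3 stretch at 70% or more of its bases without gaps. Relative to the summit, and counting toward the kleisin gene, the stretch ran from -12 to 72 bp at coh-3 and from 0 to 84 bp at coh-4. The 13-base string and the word GTACGGT lay inside it, centred at 27 and 43 bp at coh-3. At coh-4 they were centred at 39 and 55 bp. Among the 28 pairs of peak windows, the next matches by score were 14 identical bases each, 1 between scc-1 and rec-8 in the same orientation to the genes and 1 between rec-8 and coh-3 in opposite orientation, which is not the 13-base string. The sources used here do not say how reads that fit both stretches were placed.

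The 7-base word was in the windows of scc-1, rec-8, coh-3, coh-4 and wapl-1. At coh-3 and coh-4 it lay inside the stretch that these sites share, so these windows are not separate occurrences. The word was in 5.19% of all reproducible peaks, 7.22% of those near a protein-coding start and 1.31% of the other candidates. Other words of this length in at least 5 of the 8 windows were CTTTAAA, at 9.32% of peaks and 8.92% of other candidates, and TTTCAAA, at 21.9% of peaks and 27.1% of other candidates. CTTTAAA lies within the 13-base string at the meiotic kleisin genes, and the reverse complement of TTTCAAA contains TTTGAA, a CHR sequence described after the E2F-type ones.

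A canonical E2F sequence was near 1 of the 8 summits. The E2F-type letters searched on both strands were TTTCCCGC, TTTCGCGC, TTTGCCGC and TTTGGCGC, and the same without the first T, which each longer form contains. The shorter forms stood within 100 bp of 30.7% of all reproducible summits, 34.7% of those near a start and 8.95% of other candidates, and the longer forms at 17.2%, 19% and 4.55%. At the cohesin genes the match was at scc-2, shown here with the E2F-type sequence in capitals, and the difference from these shares was not tested.
scc-2, chrII:255250-255450, minus strand: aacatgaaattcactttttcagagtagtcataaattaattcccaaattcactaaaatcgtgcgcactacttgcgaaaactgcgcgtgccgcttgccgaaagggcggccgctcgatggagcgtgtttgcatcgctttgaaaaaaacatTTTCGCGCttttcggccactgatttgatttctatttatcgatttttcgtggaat

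The E2F-type sequence of scc-2 was centred 51 bp from the summit, toward the gene start. At wapl-1 a shorter form, TTCGCGC, lay at 99 bp, so that it was not wholly inside the window of 100 bp. No form was found within 250 bp of the summits of smc-3, scc-1, scc-3, rec-8, coh-3 or coh-4. These letters describe the windows, and their absence says nothing about the factor.

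The cell cycle gene homology region (CHR), TTCGAA or TTTGAA, which the DREAM subunit LIN-54 binds, stood in all 8 windows. It was in 56.4% of all reproducible peaks, 61.8% of those near a start and 53.6% of other candidates. The window of smc-3 held 3 matches, those of coh-3 and coh-4 held 2 each, and the others 1 each. The candidate windows of him-1 and coh-1 held 1 and 0.

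**Figure D1:**
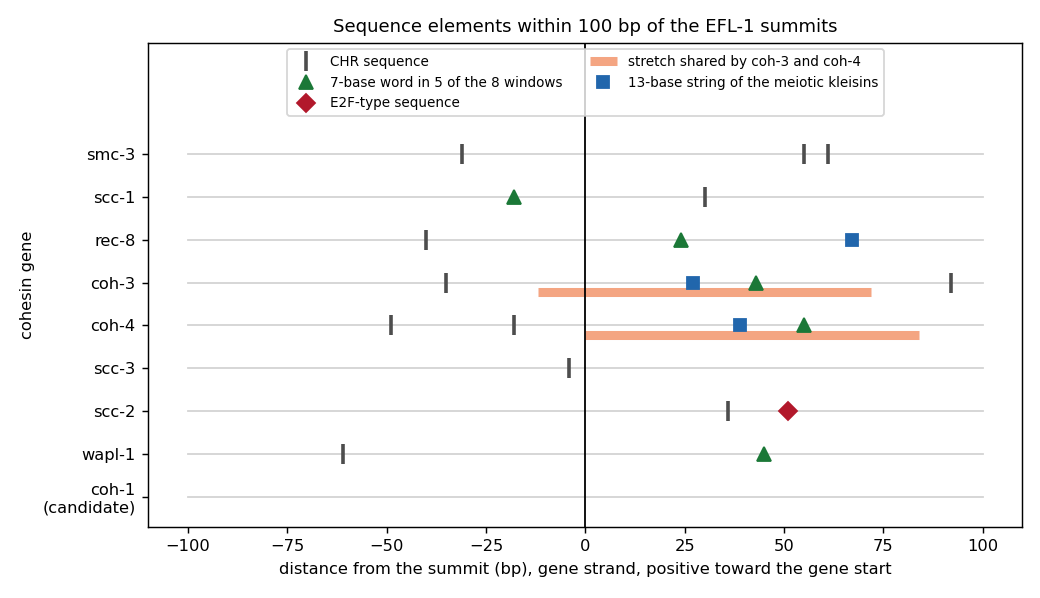
Positions of the sequence elements relative to the summit in bp (horizontal axis, gene strand, positive toward the gene start) for the 8 cohesin peaks and the coh-1 candidate (rows). Ticks stand for CHR, the diamond for the E2F-type sequence, squares for the 13-base string, triangles for the 7-base word and bars for the 85 bases that coh-3 and coh-4 share. The 13-base string is in the 3 meiotic kleisin rows, inside the bars at coh-3 and coh-4, and the E2F-type sequence is in the scc-2 row alone.

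The SMC genes differed between themselves. SMC-1, encoded by him-1, and SMC-3 form the arms of the ring. The smc-3 gene lies on chromosome III from 11290904 to 11306247 on the plus strand, and its peak spanned 11290594 to 11290869 with the summit 172 bp upstream of the start. The authors' signal value for it was 107 with the replicates pooled, 72.4 for replicate 1 and 33.3 for replicate 2. No source used here states the scale of this value, so it serves to order peaks within a list. The smc-3 peak was the weakest of the 8, at rank 725 of the pooled nuclear candidates, 677 for replicate 1 and 999 for replicate 2. A second smc-3 start at 11300791 had only a candidate, with a pooled signal value of 27.3.

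The him-1 gene had no reproducible peak. It lies on chromosome I from 4951571 to 4957667 on the minus strand, and no pooled candidate lay within 500 bp of its outer start at 4957667. Its only candidate lay 438 bp upstream of the inner start at 4952490 and ranked 20050, with a pooled value of 13.4. The candidates that overlapped it had 8.96 in replicate 1 and 7.01 in replicate 2. Their summits lay 62 and 191 bp from the pooled one, so the replicate values may belong to other sites. The nearest reproducible peak was 9993 bp from a start of him-1. The mitotic spindle gene mzt-1, looked up after the him-1 values were seen, ends 107 bp upstream on the same strand, and it had no pooled candidate near its starts either, with the nearest peak 9351 bp away.

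The mitotic kleisin genes gave 1 peak between them. The scc-1 gene, on chromosome II from 4698721 to 4700994 on the plus strand, had a peak at 4698339 to 4698614, with the summit 244 bp upstream. The pooled signal value was 121.7, with 81.8 for replicate 1 and 43.1 for replicate 2, at ranks 593, 556 and 657. The coh-1 gene, on the minus strand of chromosome X from 7465193 to 7475018, had a candidate 187 bp upstream of its outermost start. This candidate had a pooled value of 32.4, with 19.8 for replicate 1 and 9.77 for replicate 2, at ranks 3454, 4243 and 9253. The overlapping replicate summits lay 8 and 61 bp from the pooled one. The coh-1 candidate was the strongest uncalled site of a cohesin gene, and smc-3 had the weakest called one. The lowest signal value of a reproducible peak was 45.6. The other 3 coh-1 starts had no pooled candidate, and the nearest reproducible peak was 32329 bp away. On X, 2.12% of protein-coding genes had a peak, and coh-1 is the only cohesin gene on it.

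Among the meiotic kleisin genes, rec-8 and coh-4 had the strongest peaks of all cohesin genes. The rec-8 gene, on chromosome IV from 13349122 to 13353193 on the minus strand, had a peak at 13353328 to 13353528 with the summit 241 bp upstream of its outermost start. The pooled signal value of 348 went with 182 for replicate 1 and 169.9 for replicate 2. It ranked 83 when pooled, 136 for replicate 1 and 34 for replicate 2, and was the strongest cohesin site in all 3 lists. The inner starts of rec-8 had no candidate at 13352027 and one of 19.2 at 13349315.

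Both members of the COH-3 and COH-4 pair had a peak, with the higher values at coh-4. The coh-4 gene lies on the minus strand of chromosome V from 4169912 to 4175640, and its peak spanned 4175729 to 4175907 with the summit 183 bp upstream of the outermost start. The pooled value was 284, that of replicate 1 was 177.8 and that of replicate 2 was 106.2, at ranks 131, 143 and 128. The coh-3 gene lies on the plus strand of chromosome V from 14457422 to 14460141, and its peak spanned 14457122 to 14457397 with the summit 162 bp upstream. Here the pooled value was 152.9, that of replicate 1 was 74.5 and that of replicate 2 was 78.1, at ranks 425, 641 and 242. The value was higher for replicate 1 at 7 of the 8 called genes, all but coh-3, as it was at 89.1% of the reproducible peaks matched in both replicates. By rank within its own list, coh-3 stood higher for replicate 2, as did rec-8, coh-4, scc-2 and scc-3, whereas scc-1, smc-3 and wapl-1 stood higher for replicate 1.

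Set side by side, the kleisin genes by rising pooled signal value were coh-1 and scc-1, the mitotic ones, and then coh-3, coh-4 and rec-8, the meiotic ones. In replicate 2 the order was the same. In replicate 1, scc-1 at 81.8 stood above coh-3 at 74.5, so scc-1 and coh-3 were not ordered alike in the replicates. The positions of rec-8 and coh-4 above scc-1, and of coh-1 below the rest, were the same in the pool and both replicates. With 2 replicates and 5 genes no test of mitotic against meiotic kleisins was made.

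**Figure D2:**
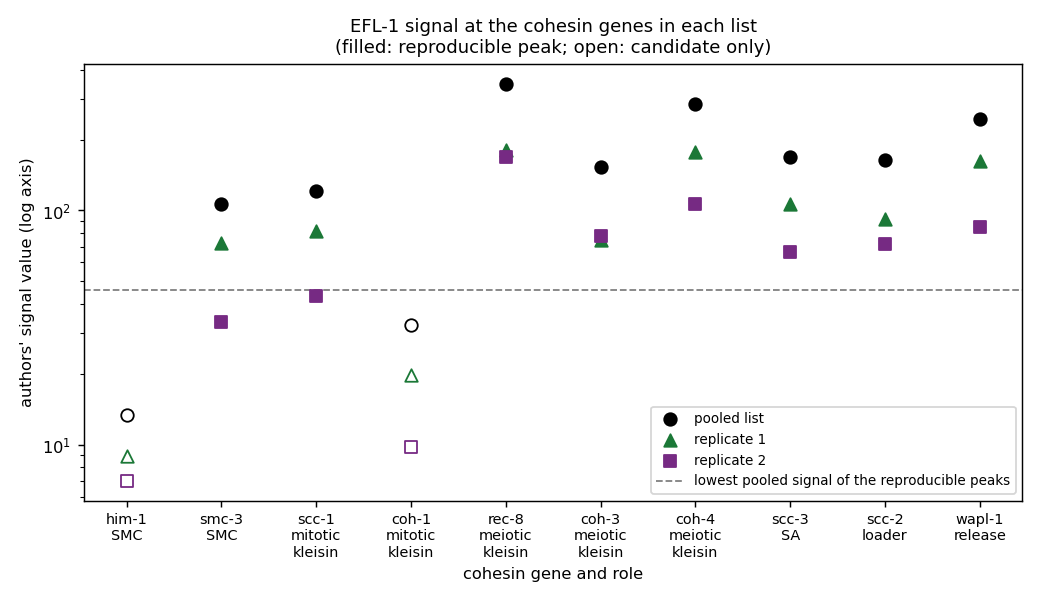
Authors' signal value (vertical log axis) of the site at each cohesin gene (horizontal axis, grouped by role) in the pooled list, replicate 1 and replicate 2. Filled symbols are reproducible peaks, open symbols the highest candidates of him-1 and coh-1, and the dashed line marks 45.6, the lowest pooled value of the reproducible peaks, for the pooled symbols alone. The 8 filled pooled symbols lie between 107 and 348.

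The remaining subunit and the regulators all had peaks. The scc-3 gene, on chromosome V from 12763945 to 12767933 on the plus strand, had its peak at 12763663 to 12763751 with the summit 237 bp upstream, with 169.6 pooled, 106.6 for replicate 1 and 66.6 for replicate 2. The gene of the cohesin loader, scc-2, lies on the minus strand of chromosome II from 240705 to 263663, and its peak at 255304 to 255410 had 164.6, 92.0 and 72.1 in the same lists. That summit was 154 bp upstream of the start at 255196 and inside the longest gene model, whose start at 263663 had no pooled candidate. A start at 243874 had a candidate of 11.9. The gene of the release factor WAPL-1, on the minus strand of chromosome IV from 4442362 to 4445740, had a peak at 4445816 to 4445987 with the summit 180 bp upstream, with 247 pooled, 162.1 for replicate 1 and 85.05 for replicate 2. Among cohesin genes, only rec-8 and coh-4 had higher pooled values than wapl-1.

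All 8 peaks were found in both replicates, as were 2147 of all 2179 reproducible peaks, so this was the usual case. Each overlapped a candidate in both, with the replicate summit at most 24 bp from the pooled one and a rank no worse than 677 in replicate 1 and 999 in replicate 2. All 8 were also among the 2179 strongest of each replicate, where 69.4% of all reproducible peaks had an overlapping candidate. The ratio of replicate 1 to replicate 2 ran from 0.954 at coh-3 and 1.07 at rec-8 to 2.17 at smc-3, with a median of 1.64, against a median of 1.70 over the 2147 peaks matched in both. With no scale stated and depth unknown, these ratios only set the peaks beside each other and do not measure a difference in binding between the replicates. The median pooled signal value of the 8 genes was 167.1, against 92.8 for all called genes, and all 8 lay above that figure.

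The 8 summits lay upstream of the cohesin starts at 154 to 244 bp, with a median of 181.5 bp. Over all called genes the median was 175 bp upstream, with quartiles of 96 and 280 bp. The tRNA gene nearest to any of these summits was 16678 bp away.

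Most of the cohesin peaks stood between divergent genes. For 7 of the 8, another protein-coding gene on the opposite strand had a start within 500 bp of the summit, against 46.2% of all called genes, counted with partners on either strand. The peak at rec-8 was shared with mex-5, which encodes a polarity protein of the zygote, and the summit was 289 bp upstream of mex-5 and 241 bp upstream of rec-8. That at coh-3 was shared with the kinesin gene bmk-1, at 276 bp, and that at coh-4 with pid-5 of the piRNA pathway, at 59 bp. That at scc-1 was shared with the proteasome gene rpn-5, at 50 bp. The wapl-1 peak was shared with the histone variant gene htz-1 at 296 bp, the scc-3 peak with abcf-1 at 333 bp, and the smc-3 peak with mib-1 at 56 bp and gly-9 at 152 bp. Only the scc-2 peak served no other gene by this rule.

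The partner was nearer to the summit at 3 of the genes. With each summit given to the nearest start alone, smc-3, scc-1 and coh-4 were no longer called, which left 5 of 10 cohesin genes, 0 of 2 mitotic and 2 of 3 meiotic kleisin genes, against 6.84% of all genes. With a distance of 200 bp, scc-1, scc-3 and rec-8 were lost instead, and 5 of 10 were called, against 4.73% of all genes. All 8 were called with a distance of 1000 bp (11.3% of all genes), among the stronger 50% of the peaks (5.31%), and from the 2179 strongest candidates of replicate 1 (8.94%) or of replicate 2 (8.27%) alone. Which gene a shared peak acts on was not measured.

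**Figure D3:**
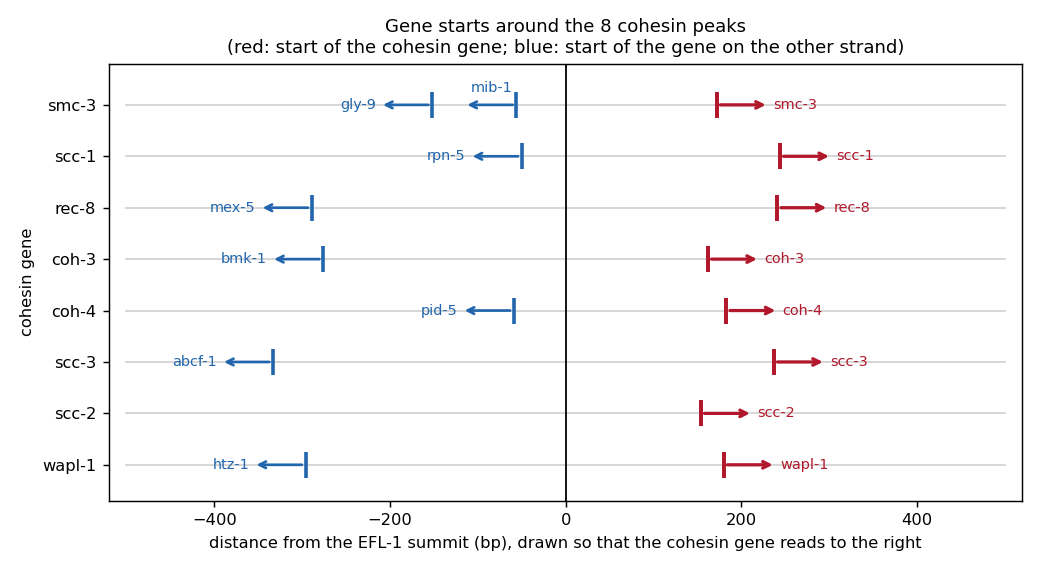
Starts of the cohesin gene (red) and of the gene on the other strand (blue) around each of the 8 peaks, with distance from the summit in bp on the horizontal axis and arrows pointing into the genes. The cohesin starts lie 154 to 244 bp from the summit, and the starts of mib-1, rpn-5 and pid-5 lie closer to it, at 50 to 59 bp. The gly-9 start, at 152 bp, is also nearer to its summit than the smc-3 start, at 172 bp.

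Genes that act with cohesin or resemble it were divided by role, and 8 of 18 had a peak, against 8.86% of all genes. Of 5 genes for loading, cohesion and release, 4 had a peak: tim-1, a Timeless-related gene, with a pooled signal value of 346, the separase gene sep-1 with 252, the securin gene ify-1 with 169.9 and evl-14, which encodes a PDS5-like protein, with 121. The gene mau-2, which encodes the partner of SCC-2 in the loader, had only a candidate of 10.5. So scc-2 had a peak and its partner had none.

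In the list of meiotic axis and cohesion protection genes, 1 of 6 had a peak, where 8.86% of all genes did, so the lack of one was the usual case. None of the HORMA domain axis genes htp-1, htp-2, htp-3 and him-3 had a reproducible peak, and their highest candidates had pooled signal values of 14.9, 11.4, 15.1 and 24.3. The gene lab-1, for a protector of meiotic cohesion, had a candidate of 30.4. The gene with a peak was sgo-1, a shugoshin gene, with 361 pooled, 207.7 for replicate 1 and 153.1 for replicate 2. That summit lay 420 bp upstream of the closest sgo-1 start.

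Relatives of cohesin in other SMC complexes were called at 3 of 7 genes, against the same 8.86% of all genes. The condensin gene smc-4 had 245, mix-1, which serves condensin and the dosage compensation complex, had 154.7, and smc-5, of the SMC-5/6 complex, had 244. The smc-4 peak was shared with F35G12.7, whose start was nearer to the summit, and the mix-1 peak with R06F6.12. No call was made at dpy-27, a dosage compensation gene with no pooled candidate, or at dpy-26, a kleisin gene of condensin and dosage compensation with a candidate of 30.9. At smc-6 and at kle-2, a condensin kleisin gene, the nearest peaks lay 641 and 682 bp from the start, outside the distance, with 165 and 186, and their candidates within it had 16.7 and 17.6. An E2F-type sequence was within 100 bp of the summit at 5 of the 8 called genes of these lists, namely evl-14, tim-1, sgo-1, smc-4 and mix-1. It was at 1 of 8 at the cohesin genes and at 34.7% of all reproducible peaks near a start, and no difference was tested. The 13-base string was at 0 of the 8 called genes of these lists and at 0.866% of all reproducible peaks near a start. The 7-base word ACCGTAC was at 1 of the 8, smc-4, and at 7.22% of all reproducible peaks near a start.

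**Figure D4:**
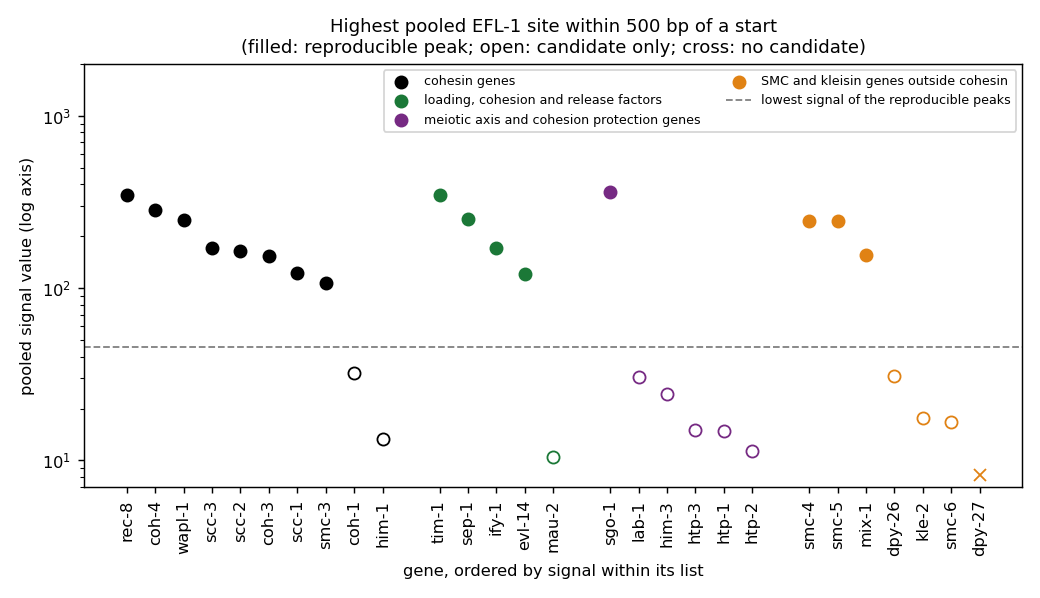
Pooled signal value (vertical log axis) of the highest site within 500 bp of a start for the 10 cohesin genes and 18 related genes, ordered within 4 lists from high to low. Filled symbols are reproducible peaks, open symbols candidates only, the cross, set at the foot of the axis, is dpy-27 with no candidate, and the dashed line is the lowest value of the reproducible peaks. In the meiotic axis and cohesion protection list, sgo-1 at 361 is the only filled symbol.

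By pooled signal value the nearest neighbours of the kleisin peaks were at genes outside these lists. Of the peaks near starts, rec-8 stood between those at the cytochrome oxidase gene cox-5B with 349 and F43G6.16 with 348.2. The coh-4 peak stood between those at ndx-6 with 285 and rsr-1 with 281, where a chemoreceptor gene has a start as well. The coh-3 peak stood between those at fan-1 with 153.1 and sna-2 with 152.7, and the scc-1 peak between those at mai-2 with 121.8 and pabp-2 with C17E4.6 at 121.3. Likeness here is nearness of 1 value in 1 list.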

How the data were processed

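The data were peak lists on build ce11 from EFL-1 chromatin immunoprecipitation in 2 biological replicates of 1 group. Per the descriptions deposited with the files, the authors called 30000 candidates per replicate and in the pool as input to the IDR, and deposited 1 optimal list. Signal values per peak were deposited by the authors, with no statement of their scale. The deposited −log10 q-value was 3.70 in all 2179 nuclear reproducible peaks and was not used to rank. The aligner, peak caller and IDR threshold were not given in the sources used here. No file holds read counts, so depth is unknown.

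Starts were the first bases of protein-coding transcripts in Ensembl release 115 (WBcel235, the same assembly as ce11), and coordinates count from base 1. Mitochondrial peaks were left out, and lists on ce10 were not used here. The reproducible peaks were the 2179 strongest nuclear pooled candidates, and overlap of at least 1 bp matched sites between lists. Members and lists were chosen with earlier results of these data known, and all genes named follow from these lists, from starts that share a peak and from neighbouring ranks, save mzt-1. The 13-base string, the 7-base words and the 85-base stretch were found by comparing the 8 windows. No test was made: values are set beside shares over all genes or peaks. Alternatives were distances of 200 and 1000 bp, the nearest start alone, the 50% of peaks with the higher signal, each replicate by itself, other overlaps and other windows. The assignment of summits and the motif search were tested on simulated data. Computation used Python 3.11.15, numpy 2.4.6, pandas 2.3.3 and scipy 1.17.1.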

Additional observations from a re-analysis of the deposited data

How the results depend on the processing

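Of 10 cohesin genes 8 were called, against 8.86% of all genes. The same 8 were called with a distance of 1000 bp (11.3% of all genes) and with the stronger 50% of the peaks (5.31%). They were also called from replicate 1 (8.94%) or replicate 2 (8.27%) alone. The count was 5 at 200 bp (4.73% of all genes) and again 5 when a summit served its nearest start only (6.84%). The mitotic kleisin genes called were 0 under both of these and 1 under the others, and the meiotic ones 2 under both and 3 under the others. Of 18 related genes, 8 were called, against 8.86% of all genes. The related count was 4 at 200 bp (4.73% of all genes), 10 at 1000 bp (11.3%) and 6 by the nearest start (6.84%). The 200 bp setting lost tim-1, sep-1, ify-1 and sgo-1, and the nearest start lost sep-1 and smc-4. Leaving out either replicate gave 8 cohesin, 1 mitotic kleisin, 3 meiotic kleisin and 8 related genes. An E2F-type sequence was at 1 of the 8 peaks, at 0 with 50 bp either side of the summit and at 2 with 250 bp. All 8 peaks were matched in both replicates under each overlap tried. With an overlap of at least 1 bp, so were 2147 of all 2179 reproducible peaks. By construction, the settings of 200 bp and of the nearest start can only remove calls, and that of 1000 bp can only add them. The 8 cohesin peaks ranked 725 or better in the pool, so the stronger 50% of the 2179 peaks kept them all. Ranks no worse than 677 in replicate 1 and 999 in replicate 2 likewise kept them among the 2179 strongest of each. How many and which genes the 200 bp and nearest-start settings removed depends on where the summits lay. No paired analysis was possible because there is 1 group and no contrast. Depth is unknown, so a missing peak, as at him-1 and coh-1, says only that none passed the authors' threshold.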
